A study of Homo sapiens with 4 samples.

Results

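The genes of nucleolar ribosome biogenesis and of RNA polymerase I were followed in the human pancreatic carcinoma line PANC-1 after knockdown of the protein deacetylase SIRT1. The set was fixed by name and holds 58 of the 16878 genes in the expression tables, all of them found by symbol. They were split by role into 9 proteins of small nucleolar ribonucleoproteins (snoRNPs), 11 subunits and cofactors of RNA polymerase I and 18 small-subunit assembly factors. The others were 17 large-subunit assembly factors and 3 proteins with several nucleolar roles (NCL, NPM1 and DDX21). RNA was sequenced from 4 libraries, 2 of Control cells and 2 of cells transfected with siRNA against SIRT1 (siSIRT1), taken 48 h after transfection. The labels do not describe the Control transfection further, and the study lists a single siRNA for SIRT1, chosen for its efficiency, so that loss of SIRT1 and other effects of that oligonucleotide cannot be told apart. The labels do not say whether the replicates came from separate cultures, and p-values then measure only the spread between these libraries. The comparison asks which of these transcripts differed between the siSIRT1 and the Control libraries.

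Ribosomes are built in the nucleolus. RNA polymerase I transcribes the tandem ribosomal DNA into a long precursor, with UBTF and the SL1 factor (TBP with TAF1A to TAF1D) marking the promoter and RRN3 bridging the polymerase to it. Box C/D snoRNPs then methylate the precursor, box H/ACA snoRNPs isomerize its uridines, and assembly factors fold and cut it into the small and the large subunit. The pathway runs high in proliferating cancer cells and is a classical target of MYC. SIRT1 itself is known as a member of a complex with RRP8 and SUV39H1 that silences ribosomal DNA when energy is low.

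Estimated depths were 8770000 to 9150000 reads per library, and the values were FPKM (fragments mapped, scaled to transcript length and to library depth). SIRT1 was at 10.5 and 10.3 FPKM in Control against 1.80 and 2.05 FPKM with siSIRT1, a log2 fold change of -1.96 (SE 0.11, limma adjusted p = 1.33e-05). The keratins KRT8, KRT18 and KRT19 and the mesenchymal gene VIM were abundant in all libraries, while KRT7, EPCAM and CDH1 were low. VIM was at 2198 and 2049 FPKM in Control against 1503 and 1427 FPKM with siSIRT1 and fell, as did the other mesenchymal marker, CDH2 (limma adjusted p = 0.00126 and 0.00427). Of the 6 epithelial markers KRT18 and KRT19 rose, by log2 fold changes of 0.26 and 0.25 (limma adjusted p = 0.0350 and 0.0178), and KRT8, EPCAM, KRT7 and CDH1 did not pass, with values of 0.25, 0.52, -0.10 and -0.22. The part of these markers in the results below was not tested. The acinar markers PRSS1, CPA1 and CELA3A reached at most 0.15 FPKM.

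The pathway was expressed in both groups. All 58 genes passed the filter of a mean of at least 1 FPKM, with means from 4.40 FPKM (UTP15) to 1760 FPKM (FBL). Together they held 0.94% of the summed FPKM in each Control library, against 1.06% and 1.05% with siSIRT1. Without FBL, which alone gave a large part of that sum, the share was 0.54% in each Control library, against 0.59% and 0.60%. Between 57 and 18426 reads, with a median of 543, lay behind a value, where the transcript length was known.

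With siSIRT1, 19 of the 58 genes rose and 3 fell (limma, adjusted p under 0.05 over all genes tested), and none changed by more than 2-fold. In all, 22 of 58 or 37.9% were called, against 37.1% of the 12191 genes tested, so that the number of calls did not set the pathway apart. Its calls were split differently from the background: 32.8% of the members rose against 24.0% of all genes, and 5.17% fell against 13.1%. The libraries of Control and siSIRT1 were fully separated in 41 members (70.7%, against 69.0% of all genes), 35 of them higher in siSIRT1 (43.8% of all genes) and 6 lower (25.2% of all genes). The median log2 fold change was 0.15, against 0.07 over all genes, and 37 of the 58 members lay above that overall median. These shares describe the set and were not tested as a set.

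The number of rises depended on the scaling of the libraries. When the FPKM sums were made equal 13 members rose and 3 fell, against 34.0% of all genes called, 18.9% higher and 15.1% lower. With quantile normalization 11 rose and 4 fell, against 35.1% of all genes called, 18.7% higher and 16.4% lower. With median-of-ratios scaling 9 rose (15.5%) and 4 fell, against 33.4% called, 16.6% higher and 16.8% lower. The members' excess of rises over the background was therefore seen as deposited and with equal sums, and their smaller share of falls in each case. The excess of the members' median over that of all genes was less affected, at 0.07 as deposited and 0.06 to 0.07 under the scalings, but it was 0.11 without the first Control library, 0.10 without the second siSIRT1 library and 0.06 without either of the others. All 3 falls and 9 of the 19 rises passed under each scaling: NOP10, NOP58, NHP2, NOLC1, POLR1D, UTP14A, NOP2, NOP16 and EBNA1BP2 rose, and RRN3, HEATR1 and EMG1 fell. For the other 10 called genes a rise is stated for the values as deposited.

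Other settings changed the calls among the members and in the background, not always in proportion. With no filter on low values 14 of the 22 calls missed the threshold, those of RRN3, HEATR1 and EMG1 included. Then 8 members rose (13.8%) and 0 fell (limma, with 3 lower at an unadjusted p under 0.05), against 10.2% and 6.03% of all genes. Without a variance trend 12 rose (20.7%) and 3 fell (5.17%), against 20.9% and 11.9% of all genes. The members' excess of rises was thus not seen in that setting. At the thresholds of the study, a fold above 1.2 and an unadjusted p under 0.001, 7 rose (12.1%) and 2 fell (3.45%). Of all genes 11.2% rose and 6.89% fell there. Fewer genes passed, among the members and in the background, when either Control library was left out. The spread within groups then came from the siSIRT1 pair alone, with a log2 SD of 0.205, against 0.164 for the Control pair. Whether this spread accounts for the lost calls was not tested. The members' median log2 fold change was 0.18 without the first Control library and 0.14 without the second, against 0.15 with all libraries. Without the first 8 members rose and 2 fell, against 14.2% and 8.31% of all genes, and without the second 9 rose and 3 fell, against 14.1% and 7.96%. Without the first siSIRT1 library 18 rose and 2 fell, against 21.6% and 12.2%, and without the second 20 rose and 4 fell, against 23.6% and 14.2%. NOP58, NHP2, NOP10, UTP14A and EBNA1BP2 passed in all 12 alternative fits.

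**Figure D1:**
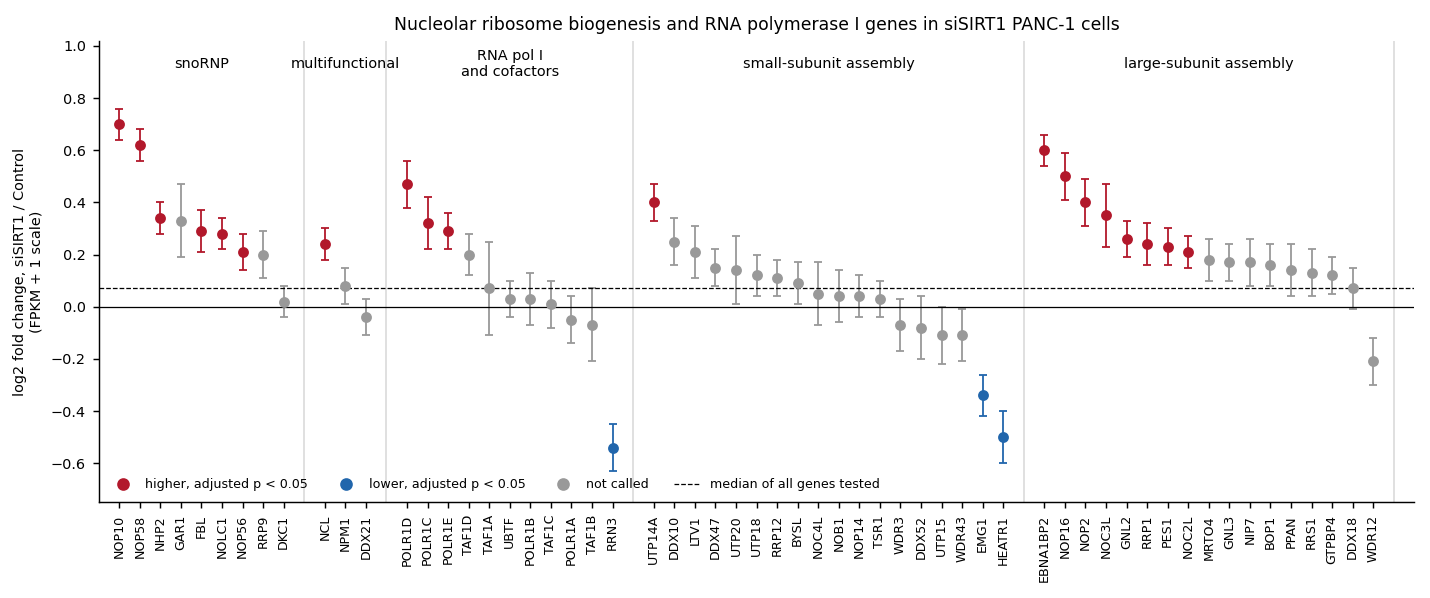
Log2 fold change (siSIRT1 over Control, on the FPKM + 1 scale) of each of the 58 genes, grouped by role and ordered by value, with bars for the standard error of the limma fit (2 libraries per group). Red genes rose and blue genes fell at an adjusted p under 0.05; RRN3, HEATR1 and EMG1 are the 3 falls, and the dashed line is the median of all genes tested at 0.07.

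**Figure D2:**
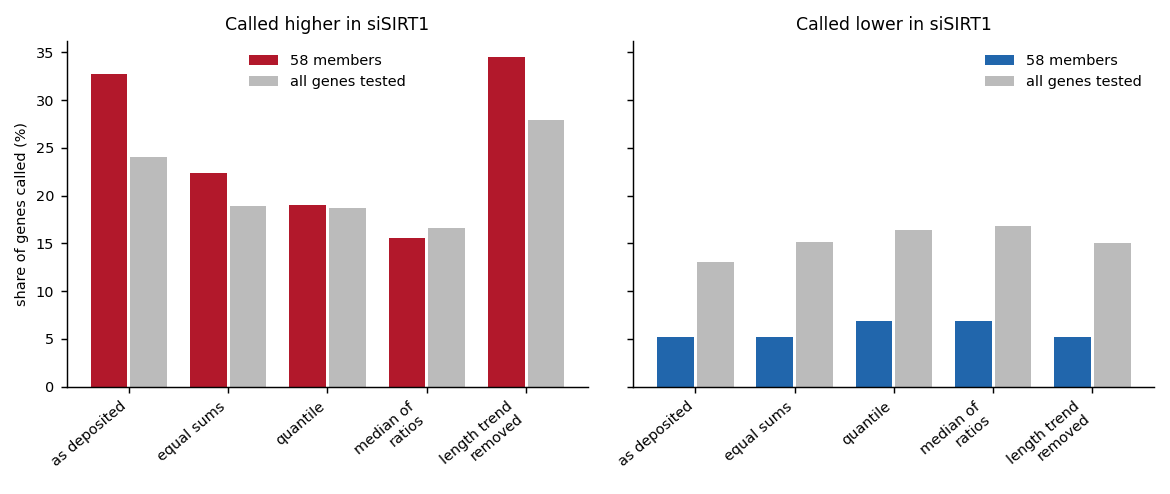
Share of genes called higher (left) or lower (right) in siSIRT1, in percent, for the 58 members (coloured) and all 12191 genes tested (grey), with the values as deposited, under 3 scalings between libraries and with the trend on transcript length removed. The share of rises among the members goes from 32.8% as deposited to 15.5% with median-of-ratios scaling, while the share of falls stays below that of all genes in each setting shown.

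The start-site regions of 6 of these genes are given to show the sequence context of 3 rises that passed in every alternative fit (NOP10, EBNA1BP2 and UTP14A), of the most abundant member (FBL) and of the 2 strongest falls (RRN3 and HEATR1). Each runs 5′ to 3′ on the gene's strand, from 250 bases before to 50 bases after a RefSeq start (build GRCh38.p14). Where RefSeq lists 2 starts, the downstream window is shown. NHP2, which also passed in every fit, had a window with neither of the motifs marked below and is not shown. NOP58, the other such rise, had no matched window. The windows shown are examples and do not stand for the set. Capitals mark the E-box CACGTG, the textbook site of MYC, and the ETS-type motif CCGGAAG or its other strand CTTCCGG. The windows lie at chr15:34343087-34343386 for NOP10, chr1:43172241-43172540 for EBNA1BP2, chr19:39846330-39846629 for FBL, chr16:15094223-15094522 for RRN3 and chr1:236604467-236604766 for HEATR1, all on the minus strand, and at chrX:129905914-129906213 on the plus strand for UTP14A.
NOP10: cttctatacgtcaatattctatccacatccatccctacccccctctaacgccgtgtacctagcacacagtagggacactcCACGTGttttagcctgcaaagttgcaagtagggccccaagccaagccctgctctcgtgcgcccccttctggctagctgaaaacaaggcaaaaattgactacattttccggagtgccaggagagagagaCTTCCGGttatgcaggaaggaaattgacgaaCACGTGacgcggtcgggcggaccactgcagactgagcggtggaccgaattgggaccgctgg
EBNA1BP2: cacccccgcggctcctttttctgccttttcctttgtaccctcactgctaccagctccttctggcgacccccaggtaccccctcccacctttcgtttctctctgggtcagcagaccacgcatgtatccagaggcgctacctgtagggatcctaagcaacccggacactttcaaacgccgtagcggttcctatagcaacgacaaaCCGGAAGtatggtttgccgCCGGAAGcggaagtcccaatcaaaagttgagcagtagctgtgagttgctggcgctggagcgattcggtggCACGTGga
UTP14A: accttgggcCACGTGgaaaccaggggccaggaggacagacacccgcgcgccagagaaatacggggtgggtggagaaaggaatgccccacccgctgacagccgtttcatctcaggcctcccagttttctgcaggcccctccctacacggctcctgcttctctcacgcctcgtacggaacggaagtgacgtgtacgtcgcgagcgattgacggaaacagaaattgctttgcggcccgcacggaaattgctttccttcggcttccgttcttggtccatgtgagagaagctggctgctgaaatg
FBL: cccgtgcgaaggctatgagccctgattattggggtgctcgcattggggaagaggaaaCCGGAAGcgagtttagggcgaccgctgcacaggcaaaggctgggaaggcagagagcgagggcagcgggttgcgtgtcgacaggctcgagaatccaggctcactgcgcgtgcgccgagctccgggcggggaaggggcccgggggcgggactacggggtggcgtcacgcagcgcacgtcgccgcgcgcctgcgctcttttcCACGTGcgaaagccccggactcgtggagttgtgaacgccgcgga
RRN3: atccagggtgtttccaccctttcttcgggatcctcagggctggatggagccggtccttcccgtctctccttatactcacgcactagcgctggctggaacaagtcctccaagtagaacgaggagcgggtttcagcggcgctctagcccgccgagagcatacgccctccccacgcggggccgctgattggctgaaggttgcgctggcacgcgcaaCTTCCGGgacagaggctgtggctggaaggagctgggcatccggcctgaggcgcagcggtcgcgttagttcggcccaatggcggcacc
HEATR1: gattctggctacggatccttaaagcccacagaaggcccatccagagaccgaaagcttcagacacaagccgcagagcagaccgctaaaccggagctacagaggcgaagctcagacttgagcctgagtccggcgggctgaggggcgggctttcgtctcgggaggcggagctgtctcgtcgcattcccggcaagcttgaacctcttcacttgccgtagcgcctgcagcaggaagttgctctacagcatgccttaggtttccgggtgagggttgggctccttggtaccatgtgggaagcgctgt

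RefSeq windows were matched for 50 of the 58 genes. The E-box was present in 19 of them (38.0%), against 12.7% of the 9984 tested genes with a window and 8.77% of all 27305 genes in the promoter table. It occurred in 8 of 16 members that rose, in 11 of 31 that were not called and in 0 of 3 that fell. The ETS-type motif, which was added after the values were seen, was present in 25 of the 50, against 23.0% of tested genes and 12.2% of all genes, and in 7 of the 16 that rose and 2 of the 3 that fell. Both strands were searched, the E-box and the ETS-type motif cannot share a base, and the ETS-type motif can overlap its own other strand. These counts are a description of the letters in the windows. MYC itself was at 33.2 and 32.5 FPKM in Control against 29.6 and 30.8 FPKM with siSIRT1, a log2 fold change of -0.12 (95% interval -0.27 to 0.03, limma adjusted p = 0.196), and it passed as lower under 1 of the 3 scalings. Its partner MAX rose, from 11.2 ± 0.396 to 16.2 ± 3.61 FPKM (SD, n = 2, limma adjusted p = 0.0219), with 18.7 FPKM in the second siSIRT1 library and 13.6 FPKM in the first, and passed under 1 of the scalings.

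The snoRNP proteins were the role with the largest share of rises as deposited. All 9 had a positive log2 fold change. Of the 9, 6 rose (66.7%, against 24.0% of all genes) and none fell (13.1% of all genes). In 8 of them the groups did not overlap (88.9%, against 69.0% of all genes). Under each scaling 4 of the 6 rises passed. NOP10, the smallest protein of the box H/ACA core, was at 97.4 and 93.0 FPKM in Control against 161 and 149 FPKM with siSIRT1. Its log2 fold change of 0.70 (SE 0.06, limma adjusted p = 0.000107) was the largest rise of the set as deposited; with the length trend removed it was 0.44, below those of NOP58 and EBNA1BP2. NHP2, another small H/ACA core protein, was at 98.4 and 99.3 FPKM in Control against 128 and 123 FPKM with siSIRT1, a log2 fold change of 0.34 (SE 0.06, limma adjusted p = 0.00223), and 48.2% of its exon bases lie under RMND5B on the other strand. Both siSIRT1 libraries lay clearly above both Control libraries for these genes.

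The catalytic subunit of the same particle did not pass. DKC1, the pseudouridine synthase dyskerin, was at 41.7 and 41.1 FPKM in Control against 41.3 and 42.8 FPKM with siSIRT1, with overlapping groups. Its log2 fold change was 0.02, with a 95% interval from -0.12 to 0.16 (limma adjusted p = 0.815). GAR1, the fourth core protein, went from 7.49 ± 1.22 to 9.65 ± 1.57 FPKM (SD, n = 2) and did not pass (limma adjusted p = 0.0979, range over the alternatives 0.0171 to 0.485). The ratio of 2 genes within a library is not changed by a scaling factor, and all ratios given here were chosen after the values were seen. No ratio was adjusted for transcript length, which differs between partners: 507 bases for NOP10, 780 for NHP2 and 2469 for DKC1. With the length trend removed, the log2 fold changes were 0.44 for NOP10, 0.16 for NHP2 and -0.01 for DKC1. NOP10 stood to DKC1 at 2.34 and 2.27 in Control against 3.90 and 3.49 with siSIRT1, and NHP2 to DKC1 at 2.36 and 2.42 in Control against 3.10 and 2.87 with siSIRT1. Neither ratio overlapped between groups. An exact two-sided permutation test of 2 against 2 libraries cannot go below p = 0.333, which is what both ratios gave.

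The 3 box C/D core proteins in the set all rose, by different amounts. SNU13, the other core protein, was not in the set. It rose from 31.9 ± 2.81 to 39.6 ± 1.71 FPKM (SD, n = 2, limma adjusted p = 0.0153) and passed under 1 of the 3 scalings. NOP58 was at 35.7 and 35.2 FPKM in Control against 55.0 and 55.1 FPKM with siSIRT1, a log2 fold change of 0.62 (SE 0.06, limma adjusted p = 0.000153). FBL, the methyltransferase fibrillarin, was at 1602 and 1556 FPKM in Control against 2011 and 1863 FPKM with siSIRT1, a log2 fold change of 0.29 (SE 0.08, limma adjusted p = 0.0193), which did not pass with median-of-ratios scaling, with no filter on low values or without either Control library (range of adjusted p over the alternatives 0.000410 to 0.373). NOP56, the partner of NOP58, rose from 60.3 ± 3.15 to 70.1 ± 3.85 FPKM (SD, n = 2, limma adjusted p = 0.0374) and passed under none of the 3 scalings. The ratio of NOP58 to NOP56 was 0.571 and 0.606 in Control against 0.755 and 0.818 with siSIRT1, without overlap. NOLC1, a snoRNP chaperone of the nucleolus and Cajal bodies, rose from 45.7 ± 0.0566 to 55.6 ± 1.92 FPKM (limma adjusted p = 0.00778), a call that was lost without either Control library and lay just inside the threshold with median-of-ratios scaling. RRP9, a protein particular to the snoRNP that starts small-subunit processing, went from 19.9 ± 0.156 to 23.0 ± 2.45 FPKM and did not pass.

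Of the 3 proteins with several nucleolar roles 1 rose. NCL, nucleolin, was at 211 and 211 FPKM in Control against 249 and 249 FPKM with siSIRT1. The libraries of each group were nearly equal. Its log2 fold change was 0.24 (SE 0.06, limma adjusted p = 0.0104), and it missed the threshold with median-of-ratios scaling, without either Control library and without the variance trend. NPM1, nucleophosmin, a histone and ribosome chaperone, was at 550 and 564 FPKM in Control against 608 and 569 FPKM with siSIRT1, with a log2 fold change of 0.08 (95% interval -0.07 to 0.23, limma adjusted p = 0.377). RefSeq lists 50 pseudogene copies of NPM1, so that its values are uncertain. The RNA helicase DDX21 was at 49.6 ± 2.20 and 48.2 ± 3.24 FPKM (SD, n = 2) and did not pass.

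**Figure D3:**
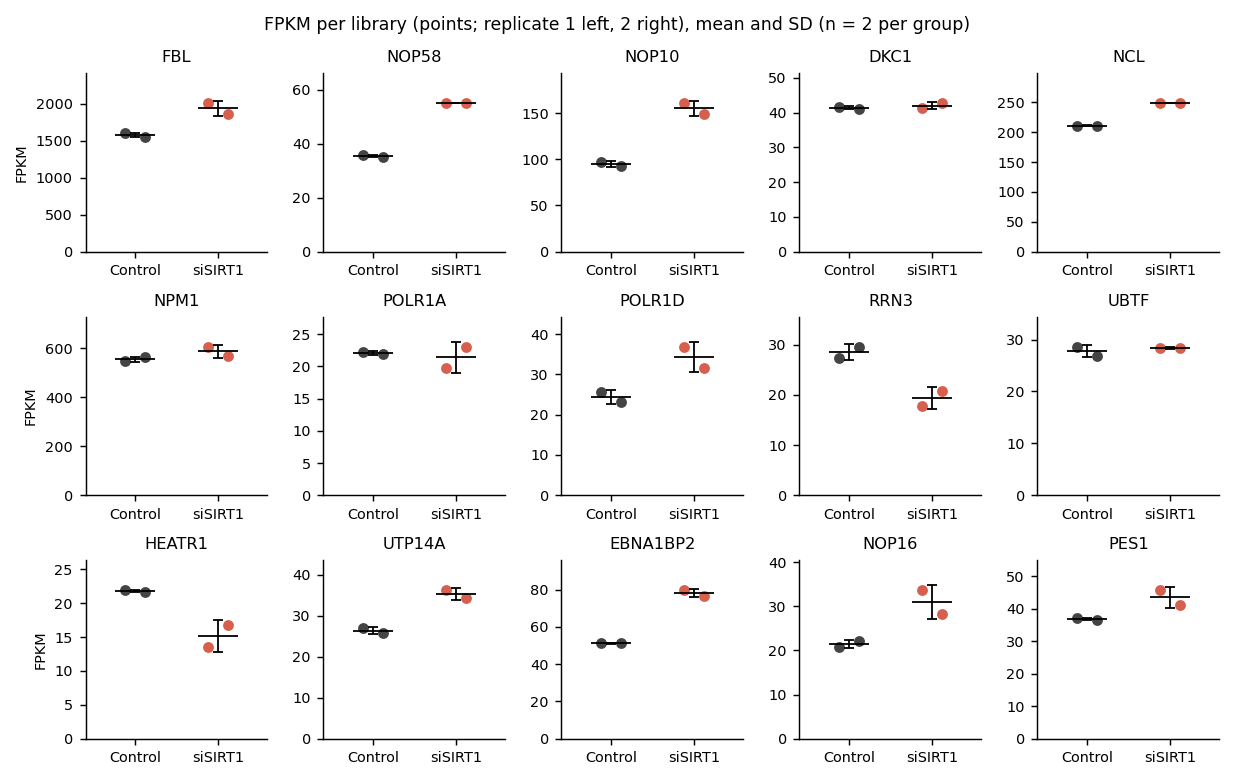
FPKM of 15 members in each library (points; Control dark grey, siSIRT1 red), with the group mean and SD (n = 2 per group) and each vertical axis starting at 0. The siSIRT1 points lie above both Control points for NOP58, NOP10, POLR1D, UTP14A and EBNA1BP2, below them for RRN3 and HEATR1, and the groups overlap for DKC1, POLR1A and UBTF.

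Within the RNA polymerase I machinery 3 of 11 genes rose, 1 fell and 7 did not pass, so that 36.4% were called and 27.3% rose, near the 37.1% and 24.0% of all genes. Neither large subunit passed. POLR1A, the largest subunit, was at 22.3 and 21.9 FPKM in Control against 19.7 and 23.1 FPKM with siSIRT1, with a log2 fold change of -0.05 (95% interval -0.25 to 0.15, limma adjusted p = 0.720). POLR1B, the other large subunit, was at 8.92 and 8.04 FPKM in Control against 8.38 and 8.95 FPKM with siSIRT1, with a log2 fold change of 0.03 (95% interval -0.20 to 0.26, limma adjusted p = 0.848). For both genes the groups overlapped.

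The 3 smaller subunits in the set rose. Their transcripts were also shorter, at 693 bases (POLR1D) to 1855 bases (POLR1E), against 12480 for POLR1A and 7527 for POLR1B. With the length trend removed, the log2 fold changes were 0.08 for POLR1A and 0.13 for POLR1B. They were 0.28 for POLR1D, 0.24 for POLR1E and 0.23 for POLR1C, which then did not pass. POLR1D, which RNA polymerases I and III share, was at 25.6 and 23.1 FPKM in Control against 36.9 and 31.6 FPKM with siSIRT1, a log2 fold change of 0.47 (SE 0.09, limma adjusted p = 0.00414). POLR1C, its partner in both enzymes, was at 13.2 and 14.4 FPKM in Control against 16.3 and 18.8 FPKM with siSIRT1, a log2 fold change of 0.32 (SE 0.10, limma adjusted p = 0.0274), and passed under none of the 3 scalings. POLR1E, a subunit particular to polymerase I, rose from 31.3 ± 1.87 to 38.4 ± 0.905 FPKM (SD, n = 2, limma adjusted p = 0.0122), a rise that passed under 1 of the scalings. POLR1G, its partner in a peripheral heterodimer of the enzyme, was not in the set. It fell from 23.1 ± 1.83 to 19.4 ± 0.339 FPKM (log2 fold change -0.24, limma adjusted p = 0.0446), and 56.4% of its exon bases lie under ERCC1 on the other strand. The ratio of POLR1E to POLR1G was 1.37 and 1.34 in Control against 2.04 and 1.92 with siSIRT1. POLR1F and POLR1H, also outside the set, did not pass (log2 fold changes 0.03 and 0.23, limma adjusted p = 0.822 and 0.274). Of the 5 subunits that all 3 nuclear polymerases share, POLR2F, POLR2H and POLR2L rose, also under each scaling, and POLR2E and POLR2K did not pass.

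RRN3 showed the largest fall of the set. This initiation factor makes the polymerase competent to start and is regulated by growth signals. It was at 27.3 and 29.6 FPKM in Control against 17.8 and 20.8 FPKM with siSIRT1, both below either Control library. The log2 fold change was -0.54 (SE 0.09, limma adjusted p = 0.00213), and RRN3 passed under every scaling. RefSeq lists 4 pseudogene copies of RRN3, and how reads shared with them were counted is not known. UBTF, which keeps ribosomal genes open and bound, was at 28.7 and 26.9 FPKM in Control against 28.5 and 28.3 FPKM with siSIRT1, a log2 fold change of 0.03 (95% interval -0.13 to 0.19, limma adjusted p = 0.768). The ratio of RRN3 to UBTF was thus 0.954 and 1.10 in Control against 0.625 and 0.736 with siSIRT1. The ratio of RRN3 to POLR1A was 1.23 and 1.36 in Control against 0.901 and 0.902 with siSIRT1.

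None of the 4 TAF1 subunits of SL1 was called. TAF1A and TAF1B were the lowest genes of the role, at 4.34 to 6.05 FPKM and 4.56 to 5.16 FPKM in Control against 4.59 to 6.43 FPKM and 3.95 to 5.27 FPKM in siSIRT1, and both overlapped between groups. TAF1C had means of 10.6 ± 0.615 FPKM in Control and 10.8 ± 0.283 FPKM with siSIRT1 (SD, n = 2). TAF1D was at 16.1 and 15.9 FPKM in Control against 17.5 and 19.6 FPKM with siSIRT1 and did not pass (limma adjusted p = 0.0925).

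**Figure D4:**
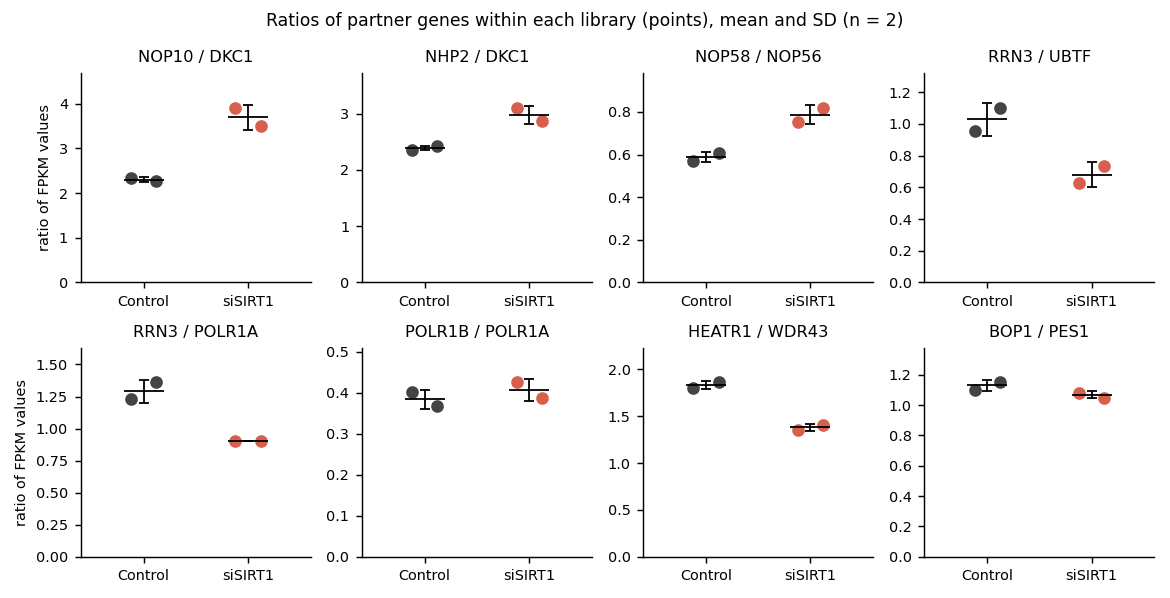
Ratios of the FPKM values of partner genes within each library (points; Control dark grey, siSIRT1 red), with the mean and SD (n = 2 per group) and no adjustment for transcript length. The siSIRT1 points lie above the Control points for NOP10 and NHP2 to DKC1 and for NOP58 to NOP56, and below them for RRN3 to UBTF and to POLR1A, HEATR1 to WDR43 and BOP1 to PES1, while POLR1B to POLR1A overlaps.

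Small-subunit assembly had the smallest share of calls of any role in the set (16.7%, against 37.1% of all genes). Of its 18 genes 1 rose, 2 fell and 15 did not pass, with a median log2 fold change of 0.05. HEATR1, which couples transcription of the precursor to its processing, was at 21.9 and 21.6 FPKM in Control against 13.5 and 16.8 FPKM with siSIRT1, a log2 fold change of -0.50 (SE 0.10, limma adjusted p = 0.00542). EMG1, a methyltransferase of small-subunit RNA, was at 22.9 and 20.3 FPKM in Control against 16.5 and 17.3 FPKM with siSIRT1, a log2 fold change of -0.34 (SE 0.08, limma adjusted p = 0.0140). Both were below either Control library in both siSIRT1 libraries. The call of EMG1 was lost without the first Control or the first siSIRT1 library. Of the exon bases, 24.8% of HEATR1 and 63.6% of EMG1 lie under a gene on the other strand and 1.7% and 12.8% under one on the same strand, and it is not stated whether the counting used strand.

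UTP14A, the cofactor that activates the helicase releasing the processing snoRNP, moved the opposite way. It was at 26.9 and 25.9 FPKM in Control against 36.3 and 34.3 FPKM with siSIRT1, a log2 fold change of 0.40 (SE 0.07, limma adjusted p = 0.00224). The other factors of early small-subunit assembly had smaller values. WDR43, UTP15 and WDR3, which like HEATR1 belong to the early scaffold, had log2 fold changes of -0.11, -0.11 and -0.07, and UTP18, UTP20, NOP14 and NOC4L had values of 0.12, 0.14, 0.04 and 0.05. The ratio of HEATR1 to WDR43 was 1.80 and 1.86 in Control against 1.35 and 1.41 with siSIRT1. The helicases DDX10, DDX47 and DDX52 had log2 fold changes of 0.25, 0.15 and -0.08. RRP12, BYSL, LTV1, TSR1 and NOB1, which carry the particle out of the nucleus and finish it in the cytoplasm, had values from 0.03 (TSR1) to 0.21 (LTV1). None of these 15 genes passed.

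In large-subunit assembly 8 of 17 genes rose (47.1%, against 24.0% of all genes) and none fell (13.1% of all genes). Under each scaling 3 of the 8 rises passed. All but WDR12 had a positive log2 fold change. In 16 of the 17 the groups did not overlap (94.1%, against 69.0% of all genes). EBNA1BP2, a nucleolar factor of early large-subunit processing, was at 51.4 and 51.1 FPKM in Control against 79.8 and 76.8 FPKM with siSIRT1. The log2 fold change was 0.60 (SE 0.06, limma adjusted p = 0.000160). NOP16 was at 20.8 and 22.2 FPKM in Control against 33.7 and 28.3 FPKM with siSIRT1, a log2 fold change of 0.50 (SE 0.09, limma adjusted p = 0.00326). NOP2, a cytosine methyltransferase of large-subunit RNA, was at 27.6 and 27.5 FPKM in Control against 40.4 and 33.3 FPKM with siSIRT1, a log2 fold change of 0.40 (SE 0.09, limma adjusted p = 0.00968). For NOP16 and NOP2 the siSIRT1 libraries lay farther apart than the Control libraries, with the first the higher. Another gene on the same strand shares 96.2% of the exon bases of NOP2, and ARL10 on the other strand covers 24.5% of those of NOP16.

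The other 5 rises were smaller and more dependent on scaling. The GTPase GNL2 rose from 26.0 ± 0.255 to 31.4 ± 0.700 FPKM (SD, n = 2, limma adjusted p = 0.0144) and passed under 1 of the 3 scalings. NOC2L and NOC3L, which accompany the particle through the nucleus, rose with log2 fold changes of 0.21 and 0.35 (limma adjusted p = 0.0230 and 0.0490), and RRP1 with 0.24 (limma adjusted p = 0.0424), and these 3 passed under no scaling. The PeBoW complex, which is needed for large-subunit processing, was split. PES1 was at 37.1 and 36.5 FPKM in Control against 45.8 and 41.2 FPKM with siSIRT1, a log2 fold change of 0.23 (SE 0.07, limma adjusted p = 0.0315) that passed under no scaling. BOP1 was at 40.8 and 42.0 FPKM in Control against 49.6 and 43.4 FPKM with siSIRT1, and did not pass (log2 fold change 0.16, 95% interval -0.01 to 0.33, limma adjusted p = 0.135). WDR12 was at 19.1 and 17.4 FPKM in Control against 14.7 and 16.5 FPKM with siSIRT1, and did not pass (log2 fold change -0.21, 95% interval -0.42 to -0.01, limma adjusted p = 0.0928), although it passed as lower under 2 of the 3 scalings. The ratio of WDR12 to PES1 was 0.514 and 0.476 in Control against 0.322 and 0.399 with siSIRT1. MRTO4, GNL3, NIP7, PPAN, RRS1, GTPBP4 and DDX18 had log2 fold changes from 0.07 (DDX18) to 0.18 (MRTO4) and did not pass.

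The direction of change went with transcript length. Over the 57 members with a canonical transcript, Spearman's rho between length and log2 fold change was -0.63, against -0.19 over 11941 genes (across genes, which share the libraries and are not replicates). Of 23 members under 2000 bases 10 rose and 0 fell. Of 20 members from 2000 to under 4000 bases 9 rose and 1 fell, and of 14 members of 4000 bases or more 0 rose and 2 fell. Among all genes the share of rises also declined over these classes, from 36.5% to 26.1% and 14.9%. Their share of falls was 11.5%, 12.9% and 14.3%, so that the falls among the long members did not set them apart. NOP10, at 507 bases, was the shortest transcript of the set and HEATR1 measures 8459 bases. With each library's smooth trend on length removed, an alternative added after the values were seen, 20 members rose and 3 fell, against 27.9% and 15.0% of all genes, and the excess of the members' median over that of all genes was 0.04. This adjustment made several single values smaller by over 1.5 times, with the calls kept: the log2 fold change of NOP10 went from 0.70 to 0.44, that of NHP2 from 0.34 to 0.16, that of POLR1D from 0.47 to 0.28 and that of FBL from 0.29 to 0.18. POLR1C (0.23) no longer passed, and DDX10 (0.25) and GTPBP4 (0.17) then did. Those of NOP58 (0.58), EBNA1BP2 (0.51), UTP14A (0.38), RRN3 (-0.52) and HEATR1 (-0.40) moved less.

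**Figure D5:**
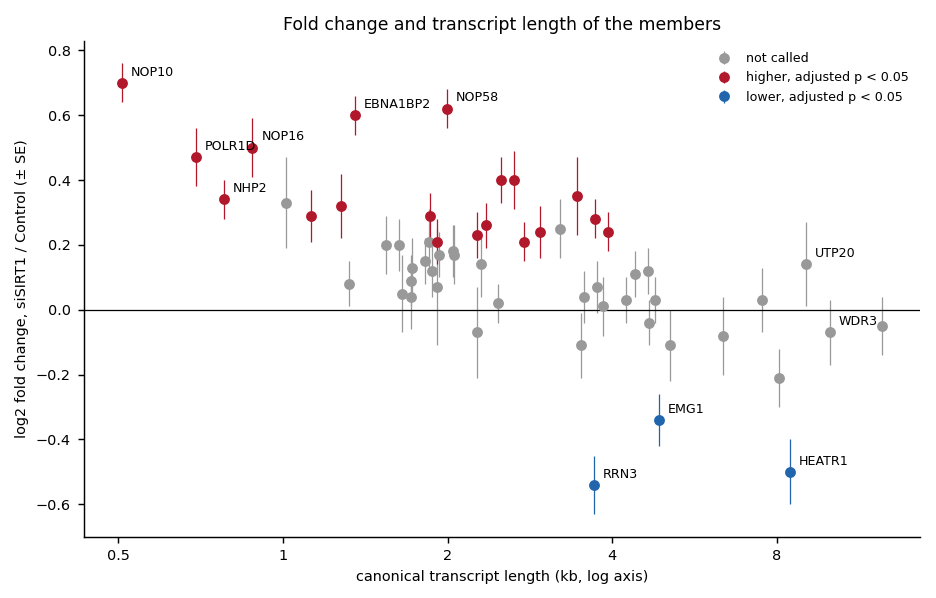
Log2 fold change (siSIRT1 over Control, with the standard error) against canonical transcript length in kilobases on a log axis, for the 57 members with a length. Genes that rose (red) lie below 4 kb, and the 14 members of 4000 bases or more hold 2 falls (EMG1 and HEATR1) and no rise. Of all genes of that length 14.9% rose and 14.3% fell.

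The wider pathway was followed with 118 further ribosome biogenesis genes in 5 lists. Of them 28 rose (23.7%) and 6 fell (5.08%), with a median log2 fold change of 0.12, against 24.0% and 13.1% and a median of 0.07 over all genes. Among 39 other small-subunit factors 12 rose and 3 fell. Their share of calls (38.5%) was larger than among the 18 in the set and near the 37.1% of all genes. Among 42 other large-subunit factors 7 rose (16.7%) and 1 fell (2.38%). Their share of rises was below the 24.0% of all genes and the 47.1% among the 17 in the set, so that the excess in the set was not shared by them. Of 12 other polymerase I subunits and factors 4 rose and 1 fell, and of 14 exosome genes 3 rose and 1 fell. Of 11 other snoRNP genes, which are assembly factors and the core protein SNU13, 2 rose. The largest rises were those of TSR2, SBDS and POLR2L. TSR2, an escort of a small-subunit ribosomal protein, was at 10.2 and 9.93 FPKM in Control against 19.2 and 19.1 FPKM with siSIRT1, a log2 fold change of 0.86 (SE 0.08, limma adjusted p = 0.000125), and 27.1% of its exon bases lie under FGD1 on the other strand. SBDS, which frees the large subunit for translation, was at 18.1 and 18.7 FPKM in Control against 31.1 and 30.9 FPKM with siSIRT1, a log2 fold change of 0.72 (SE 0.07, limma adjusted p = 0.000145). POLR2L, a small subunit shared by the nuclear polymerases, was at 274 and 266 FPKM in Control against 440.3 and 396 FPKM with siSIRT1, a log2 fold change of 0.63 (SE 0.07, limma adjusted p = 0.000270). All 3 passed under each scaling. RefSeq lists 1 pseudogene copy each of SBDS and POLR2L, so that their values are uncertain. Of the exon bases of SBDS, 12.9% lie under TYW1 on the other strand, and 12.7% of those of POLR2L under CD151.

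The largest falls in these lists, apart from SIRT1, were those of 2 small-subunit factors. KRR1 was at 18.2 and 19.2 FPKM in Control against 11.7 and 12.6 FPKM with siSIRT1, a log2 fold change of -0.59 (SE 0.08, limma adjusted p = 0.000959). TBL3 was at 32.1 and 32.2 FPKM in Control against 22.6 and 23.6 FPKM with siSIRT1, a log2 fold change of -0.46 (SE 0.07, limma adjusted p = 0.00109). Both passed under each scaling. Of TBL3's exon bases 31.4% lie under another gene on the other strand and 19.0% under one on the same strand. For KRR1 15.0% lie under GLIPR1 on the other strand, and RefSeq lists 1 pseudogene copy.

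Of 12 upstream regulators of ribosomal DNA, MAX and SIRT7 rose, and RPS6KB1 and SIRT1, the target of the siRNA, fell. The share called was 33.3%, against 37.1% of all genes. The partners of SIRT1 in the silencing complex did not pass. RRP8 had means of 7.83 ± 0.247 FPKM in Control and 9.18 ± 0.728 FPKM after knockdown (SD, n = 2), and its log2 fold change was 0.20 (95% interval -0.03 to 0.43, limma adjusted p = 0.148). SUV39H1, a histone methyltransferase, had means of 10.1 ± 0.424 and 12.3 ± 0.361 FPKM, a log2 fold change of 0.25 (95% interval 0.05 to 0.45, limma adjusted p = 0.0533). SIRT7, a nucleolar sirtuin known as an activator of RNA polymerase I, had means of 22.6 ± 0.841 FPKM in Control and 31.9 ± 2.31 FPKM after knockdown (SD, n = 2) and rose, by a log2 fold change of 0.47 (SE 0.08, limma adjusted p = 0.00180) that passed under each scaling. MYBBP1A, a nucleolar repressor of this transcription, was at 44.1 and 44.7 FPKM in Control against 44.9 and 42.9 FPKM with siSIRT1 (log2 fold change -0.02, 95% interval -0.16 to 0.13, limma adjusted p = 0.869). Treacle (TCOF1), a nucleolar scaffold for polymerase I, rose from 27.4 ± 1.29 to 33.5 ± 0.297 FPKM (SD, n = 2, limma adjusted p = 0.0125) and passed under 1 of the 3 scalings. Pre-ribosomal RNA, ribosome number and the share of cells that changed were not measured, and in such bulk RNA fewer cells expressing a gene and less RNA per cell cannot be told apart.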

How the data were processed

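RNA from the 4 libraries was sequenced by the authors, who deposited 1 table per library of gene-level FPKM values rounded to 2 decimals, with Entrez identifiers, RefSeq transcripts and symbols for 16878 genes. The submitters' processing notes name HISAT, Bowtie2 and RSEM without a role. The genome build, filters, strand use and treatment of shared reads are not given in the sources used here. The tables hold no coordinates.

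Genes whose mean FPKM reached 1 were compared on log2(FPKM + 1) with limma (version 3.58.1, R 4.3.3), with a variance trend on mean expression, two-sided, with Benjamini-Hochberg adjustment over all 12191 genes and a threshold of 0.05. Fold changes on this scale understate those of weakly expressed genes. Alternatives were no filter, another pseudocount, 3 scalings, no variance trend, a replicate block, the study's thresholds, a length adjustment and leaving out each library. Intervals are 95% intervals of the fit. The members and lists were chosen with earlier results of these data known. Roles were assigned from general knowledge. Every member may be named, and full values are given for the 3 called members of largest change per role and for 11 core genes. In the other lists, they are given for 6 regulators and for the 3 largest rises and falls, with POLR1G, MAX, TCOF1 and SNU13 chosen after their values were seen.

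Depth was estimated from steps of 1 read in the low FPKM values of 55 to 71 genes with 1 exon and 1 listed transcript, with a length offset of 80 bases. Reads behind a gene are approximate and cover counting error only. Transcript lengths and exon overlaps are those of GENCODE release 44 on GRCh37 (BOP1 had none), and promoter windows are from RefSeq. Of the 58 members, 15 have pseudogene copies named after them in RefSeq, and 11 have over 20% of their exon bases under another gene. Among the called members, FBL, NOP56, NHP2, NOLC1, NCL, RRN3, PES1, GNL2 and NOC2L have such copies, so that their values are uncertain. Symbols were matched by identifier for 16846 genes. Figures were drawn with matplotlib 3.10.9.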

Additional observations from a re-analysis of the deposited data

How the results depend on the processing

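Leaving the low values unfiltered, the 3 scalings, the pseudocount, the trend of the variance, the replicate block, the thresholds of the study and the omission of each library were chosen as alternatives at the outset, and the length adjustment later. With no filter 8 members rose and 0 fell (limma; 3 were lower at an unadjusted p under 0.05), 1726 and 1017 of all genes, and 15 and 3 of the other ribosome biogenesis genes. At a fold above 1.2 and an unadjusted p under 0.001 these numbers were 7 and 2, 1367 and 840, and 13 and 3. Without the variance trend 12 members rose, and 3 of the other biogenesis genes fell. With quantile normalization 11 members rose and their median log2 fold change was 0.08, with median-of-ratios scaling 9 and 0.07, and with equal sums 13 and 0.09. With the length adjustment 10 of the other biogenesis genes fell. The cause was not tested. Over the fits that each left out 1 library, 8 to 20 members rose and 2 to 4 fell. The numbers were 1721 to 2874 and 970 to 1734 for all genes, and 17 to 30 and 3 to 6 for the other biogenesis genes. The members' rises were 8 without the first Control library and 9 without the second, against 18 and 20 without a siSIRT1 library. In these fits the group with 1 library is assumed to vary like the other. SIRT1 was called lower in all 12 alternative fits.

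Of the 22 called members, 5 passed in all 12 alternative fits (NOP58, NHP2, NOP10, UTP14A and EBNA1BP2), and no called member changed direction in any of them. Of the 58 members, 11 changed sign under some scaling, none of them called. The replicate numbers are shared by the groups, but the labels do not say that they mark a common batch, and same-numbered libraries deviated together only weakly (correlation 0.123 over genes). With the replicate block 22 members rose and 3 fell, among 3485 and 1908 of all genes, and GAR1, RRP9 and MRTO4 were the 3 added calls. GAR1, RRP9, BOP1 and MRTO4 also passed as higher, and WDR12 as lower, without the second siSIRT1 library, and TAF1D as higher without the first.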
